A study of Mus musculus with 10 samples.

Results

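Hif1a and 9 genes of glucose uptake and glycolysis were examined for binding of p65 in RAW264.7 macrophages, as the counterpart to the genes of oxidative phosphorylation. The 10 genes were Hif1a, Slc2a1, Hk1, Hk2, Pfkfb3, Pfkl, Aldoa, Eno1, Ldha and Pdk1, of 21887 protein-coding genes in the RefSeq table of the mouse assembly GRCm38.p6. Each peak of a library was counted for a gene where it overlapped the gene body extended by 10 kb on each side. These windows covered 0.603 Mb in all. They held 44 to 75 peaks per library, which merged into 153 of the 235070 regions found over the genome.

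RAW264.7 is a wild-type mouse macrophage-like line established from a male tumour that the Abelson leukemia virus induced. Cells received the solvent alone (DMSO group), lipopolysaccharide from bacterial cell walls in DMSO (LPS group), which activates macrophages through TLR4, or LPS together with skatole, an indole that gut bacteria make from tryptophan (LPS+Skatole group), each for 12 h. p65, a DNA-binding subunit of NF-κB, was mapped by CUT&Tag, where antibody-tethered Tn5 transposase cuts and tags DNA near the protein, with 3 libraries per group of 200000 cells each. The antibody is given as p65 in the labels and as phospho-p65 in the study's methods, and the captured form is not settled. A Blank sample without primary antibody was not analysed here, so no value is corrected for signal without antibody. Nothing in the labels says whether the 3 libraries of a group came from separate cultures, so the spread between them may be technical.

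Hif1a encodes the oxygen-regulated subunit of HIF-1, a factor that binds hypoxia response elements and raises transcription of glucose transporters and glycolytic enzymes. NF-κB is known to act on the Hif1a promoter, and macrophages activated by LPS shift towards glycolysis and away from mitochondrial respiration. Slc2a1 encodes the glucose transporter GLUT1, Hk1 and Hk2 the hexokinases that phosphorylate glucose, Pfkl the liver form of phosphofructokinase, and Pfkfb3 the enzyme that makes fructose 2,6-bisphosphate, its activator. Aldoa and Eno1 encode the later enzymes aldolase A and enolase 1. Ldha encodes the lactate dehydrogenase subunit that turns pyruvate into lactate, and Pdk1 the kinase that holds pyruvate back from oxidation in the mitochondria.

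The start site held the region of highest mean rank in 9 of the 10 genes, with a library without a peak set to 0 (Pdk1 was the exception). The promoters of 4 of the 10 genes are shown, 250 bases before and 50 after the start of transcription from RefSeq (GRCm38.p6, plus strand in each). The first is the promoter of the regulator itself (Hif1a, chr12:73907617-73907916). Next is the promoter whose region was lower in LPS+Skatole than in LPS without overlap (Slc2a1, chr4:119108495-119108794). The others are the start site that was called as a peak in some groups only (Pdk1, chr2:71872974-71873273) and the promoter with the most HIF core motifs (Ldha, chr7:46845554-46845853). In the Hif1a, Slc2a1 and Pdk1 sequences capitals mark matches to a loose κB motif (3 G, any 5 bases and 2 C) on either strand, where neighbouring matches may overlap. In the Ldha sequence they mark matches to the HIF core motifs ACGTG and GCGTG on either strand, where the letters CACGTG hold a match on each strand.
Hif1a: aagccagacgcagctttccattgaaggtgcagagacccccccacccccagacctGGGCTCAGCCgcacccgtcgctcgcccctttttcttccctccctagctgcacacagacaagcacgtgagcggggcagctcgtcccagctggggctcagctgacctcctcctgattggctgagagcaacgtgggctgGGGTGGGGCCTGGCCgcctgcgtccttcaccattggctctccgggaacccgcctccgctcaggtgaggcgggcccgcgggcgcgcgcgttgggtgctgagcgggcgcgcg
Slc2a1: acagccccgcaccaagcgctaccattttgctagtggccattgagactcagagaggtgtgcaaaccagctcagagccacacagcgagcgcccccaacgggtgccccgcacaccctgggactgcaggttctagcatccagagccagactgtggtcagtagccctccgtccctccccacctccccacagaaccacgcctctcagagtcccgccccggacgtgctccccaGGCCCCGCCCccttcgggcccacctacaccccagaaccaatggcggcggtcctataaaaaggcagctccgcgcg
Pdk1: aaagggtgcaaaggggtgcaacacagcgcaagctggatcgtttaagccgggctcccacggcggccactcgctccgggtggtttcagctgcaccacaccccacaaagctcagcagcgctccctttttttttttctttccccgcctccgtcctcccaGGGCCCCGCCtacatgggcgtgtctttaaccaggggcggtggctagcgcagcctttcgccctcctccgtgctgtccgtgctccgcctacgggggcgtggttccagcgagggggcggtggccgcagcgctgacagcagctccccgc
Ldha: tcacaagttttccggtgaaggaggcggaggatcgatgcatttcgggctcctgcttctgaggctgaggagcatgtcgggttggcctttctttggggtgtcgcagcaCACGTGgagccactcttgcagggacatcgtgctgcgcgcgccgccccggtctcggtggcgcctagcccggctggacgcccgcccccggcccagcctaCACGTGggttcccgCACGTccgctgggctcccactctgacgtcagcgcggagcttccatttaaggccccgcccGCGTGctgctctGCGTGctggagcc

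Of the 10 genes, 18 promoters were matched. The κB motif was found in 14 of them and in 57.0% of 21263 promoters of protein-coding genes, ACGTG in 9 of them and in 20.9% of all, and GCGTG in 10 of them and in 38.5% of all. At least 1 of both HIF cores was present in 15 of the 18 promoters and in 49.3% of all. The Hif1a promoter held 3 κB matches, starting at −196, −60 and −55 from the start base. The Slc2a1 promoter held 1 at −24 and the Pdk1 promoter 1 at −95. The Ldha promoter held 5 matches to ACGTG and 2 to GCGTG, the Hif1a promoter 3 to ACGTG, and the Pdk1 promoter 2 to GCGTG. These are matches of letters and not bound sites. Some of the 18 promoters overlap, within Aldoa and within Eno1, so a match in a shared stretch counts for each.

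Peaks at the start sites were called in the DMSO libraries too, that is, without LPS. They are not corrected for signal without antibody, so they were not shown to be p65 binding. A gene start lay inside a region with a peak in all 9 libraries for 9 of the 10 genes (Pdk1 was the exception), where 34.8% of the 17492 genes with a known start did so. Each of the 10 genes had a peak somewhere in its window in every library, as did 54.2% of all genes. In the same 9 genes the start-site region also had the highest mean rank in the window when a library without a peak counted as 0. In Pfkfb3 this rested on that 0, since a region 18.24 kb downstream of its other start had a mean percentile of 86.4 over the 8 libraries that called it, against 83.3 at the start over 9. The second starts of Hk1, Pfkfb3 and Pdk1 had no peak in any library. Of the 153 regions, 22 had a peak in all 9 libraries, 53 in 2 to 8 and 78 (51.0%) in 1 library only, compared with 71.3% of all regions in 1 library only. Of those 78, 37 came from an LPS+Skatole library, 29 from an LPS library and 12 from a DMSO library. The whole lists follow the same order of length, and this split is not given for all regions.

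The summit of the start-site region stayed close to the start in most genes. In Ldha the summits of the 9 libraries lay between −135 and −45 bp, in Hif1a between −121 and 3 bp, in Eno1 between −175 and −7 bp, in Slc2a1 between −136 and 89 bp, and in Hk1 between −122 and 131 bp. Those of Aldoa lay between −258 and 22 bp and those of Pfkl between −29 and 371 bp. In Hk2 and Pfkfb3 they were spread over 1224 and 1741 bp. Of these 9 regions, LPS+Skatole and LPS libraries did not overlap in summit position in Hk1 (31, 86 and −122 bp with LPS, 128, 127 and 131 bp with LPS+Skatole) and Hk2 (1072, −37 and 1016 bp with LPS, −42, −114 and −152 bp with LPS+Skatole). In the other 7 the groups overlapped. Summit positions were without overlap in 2 of these 9 and in 8.98% of the 5389 start regions called in all libraries.

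The number of peaks per gene was compared next, with LPS set against DMSO and LPS+Skatole against both. Over the 10 genes together the DMSO libraries had 44, 49 and 52 peaks, the LPS libraries 60, 59 and 62, and the LPS+Skatole libraries 74, 74 and 75. The 3 groups did not overlap. The whole lists grew more steeply, from 37551 to 43450 peaks in DMSO through 55637 to 63498 in LPS to 78136 to 80153 in LPS+Skatole libraries. The share of a list that fell to the 10 genes was thus 0.119% ± 0.0072 with DMSO, 0.103% ± 0.0052 with LPS and 0.0941% ± 0.00055 with LPS+Skatole (SD, n = 3 each). When each list was reduced to its 37551 strongest peaks, the 10 genes held 44, 45 and 51 peaks in the DMSO, 45, 45 and 40 in the LPS and 43, 49 and 44 in the LPS+Skatole libraries, which overlap. List length and depth differed between the groups, and a summit had to reach 6.43 to 7.34 times the genome background of the library to be called in DMSO but only 4.59 to 4.94 times in the other libraries. Among peaks whose summit was at least 8 times the background, a limit that every library could reach, the 10 genes held 44, 47 and 51 with DMSO, 44, 53 and 49 with LPS and 62, 61 and 59 with LPS+Skatole. No count of the whole lists and no share of all genes is given at this limit, here or for single genes below. Whether the 10 genes differ there from the whole list was not tested.

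**Figure D1:**
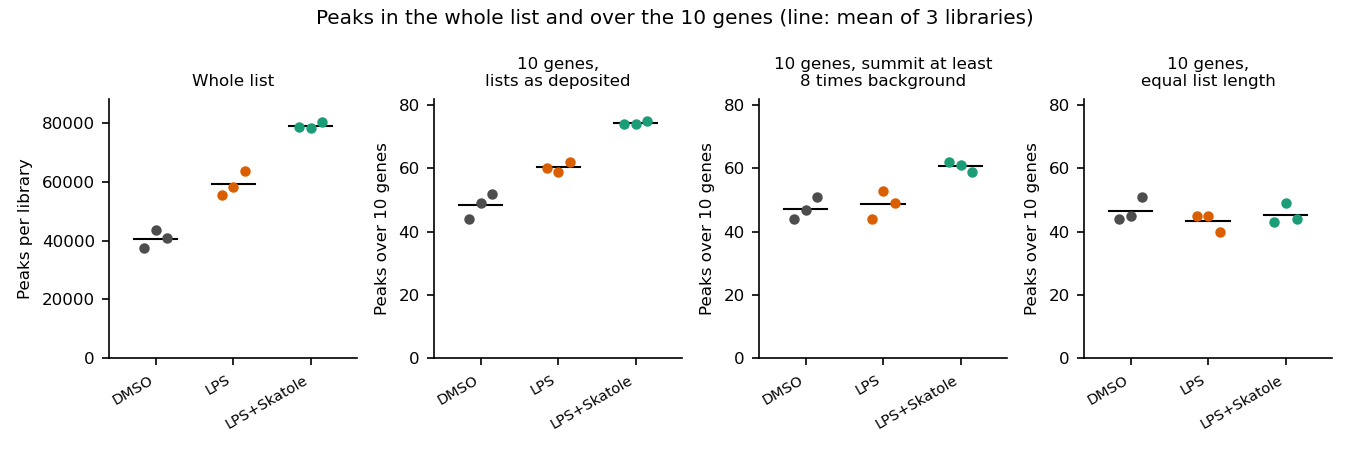
Peaks per library (y axis) in DMSO, LPS and LPS+Skatole (x axis, 1 point a library, line at the mean of 3) for the whole list, for the 10 genes with the lists as deposited, with summits of at least 8 times the background, and with lists of equal length. The 44 to 52, 59 to 62 and 74 to 75 peaks over the 10 genes separate the groups in the lists as deposited, the groups overlap at equal length, and only LPS+Skatole stands higher, at 59 to 62, with the limit of 8 times the background. No whole-list count is given at that limit, which was chosen after seeing the data.

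For Hif1a there were 5, 4 and 9 peaks with DMSO, 10, 8 and 9 with LPS, and 12, 11 and 13 with LPS+Skatole. LPS+Skatole stood above both other groups without overlap, and LPS overlapped with DMSO through 1 DMSO library. The means were 6 ± 2.65, 9 ± 1 and 12 ± 1 (SD, n = 3 each). With lists of equal length the numbers were 5, 4 and 8, then 7, 7 and 5, then 7, 8 and 7, and the groups overlapped. With the limit of 8 times the background LPS+Skatole (8, 10 and 8) stood above LPS (6, 7 and 5) and reached down to the highest DMSO library (5, 4 and 8).

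The transporter gene and the hexokinase genes follow. Slc2a1 had 6, 7 and 5 peaks with DMSO and 6, 7 and 6 with LPS, which overlap, and 9 in every LPS+Skatole library, above both. Hk1 had 5, 6 and 6 with DMSO, 11, 7 and 8 with LPS and 11, 12 and 8 with LPS+Skatole, so that both LPS groups lay above DMSO and overlapped with each other. Hk2 had 5 to 7 peaks with DMSO, 5 to 8 with LPS and 5 to 7 with LPS+Skatole, with overlap in every pair. With lists of equal length Slc2a1 (6, 6 and 5, then 5, 5 and 3, then 5, 7 and 6), Hk1 (5, 6 and 6, then 8, 5 and 5, then 6 in each) and Hk2 overlapped in every pair. With the limit of 8 times the background Slc2a1 (6, 6 and 5, then 5, 7 and 6, then 8, 9 and 9) stood above both groups in LPS+Skatole, and Hk1 (5, 6 and 6, then 8, 7 and 6, then 8, 9 and 8) stood above DMSO only. Differences between the genes were not tested.

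Pfkfb3 had the clearest order of the groups. It had 4, 4 and 3 peaks with DMSO, 6 in every LPS library and 10, 12 and 10 with LPS+Skatole. No libraries of different groups overlapped, and the joint exact permutation test over the 280 divisions of the 9 libraries gave p = 0.00357, the smallest it can give. That value was shared by 256 of the genes tested. Per 100 kb of window Pfkfb3 had 3.57, 5.85 and 10.4 peaks in the 3 groups. With lists of equal length the numbers were 4, 4 and 3, then 6, 5 and 3, then 5, 7 and 5, and LPS+Skatole stood above DMSO but not above LPS. With the limit of 8 times the background they were 4, 4 and 3, then 4, 5 and 4, then 8, 9 and 6, and LPS+Skatole stood above both. The share of all genes that separate at that limit is not given.

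The enzymes further down the pathway showed no separation of groups by number. Pfkl ranged from 3 to 5 peaks in DMSO and from 5 to 7 over the LPS and LPS+Skatole libraries, Eno1 from 3 to 6 over all libraries, and Ldha from 3 to 6. Aldoa had a mean of 6 in each group and, at 23.3 peaks per 100 kb, the densest window of the 10. Pdk1 had 4, 3 and 1 peaks with DMSO, 2, 2 and 3 with LPS and 3, 5 and 6 with LPS+Skatole, and its groups overlapped. At equal list length Pdk1 had 0, 1 and 1 in LPS and 2, 2 and 3 in LPS+Skatole, the only one of the 10 genes to separate these 2 groups there.

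**Figure D2:**
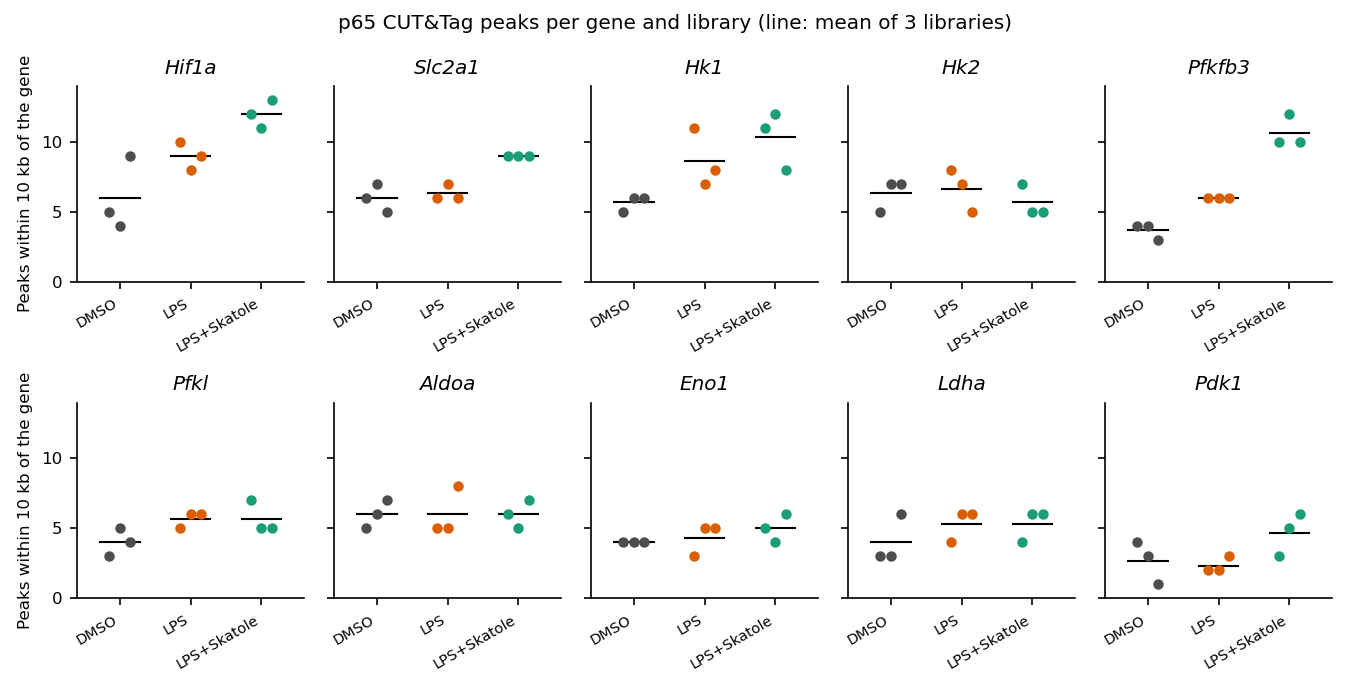
Number of p65 peaks within 10 kb of each of the 10 genes (y axis) in each library of DMSO, LPS and LPS+Skatole (x axis, points, with the mean of 3 libraries as a line). Pfkfb3 rises from 3 to 4 through 6 to 10 to 12 peaks, Hif1a and Slc2a1 are highest in LPS+Skatole, and Hk2 and Aldoa overlap between all groups.

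Counted together, LPS libraries lay above DMSO libraries without overlap in 2 of the 10 genes (Hk1 and Pfkfb3), LPS+Skatole above LPS in 3 (Hif1a, Slc2a1 and Pfkfb3), and LPS+Skatole above DMSO in 4 (these 3 and Hk1). None was lower in any pair. Among the 19505 genes with a peak in any library the same was seen for 12.2%, 9.1% and 25.4% in the higher direction and for 0.364%, 0.774% and 0.174% in the lower direction. All 10 genes had a mean of at least 3 peaks, and among the 8722 genes of that kind 20.9%, 12.8% and 39.5% were higher in the 3 comparisons. The members' shares of 20%, 30% and 40% therefore lay near this background for both comparisons with DMSO and above it, on 3 genes, for LPS+Skatole against LPS. Each of these pairs gave p = 0.1 in the exact two-sided permutation test, the smallest that 3 libraries against 3 allow. In the joint exact permutation test p was 0.0143 for Hif1a, 0.0357 for Slc2a1 and 0.05 for Hk1 beside the value of Pfkfb3. An unadjusted p under 0.05 was reached by 3 of the 10 genes and by 15.8% of all, and after Benjamini-Hochberg adjustment over 19505 genes the smallest value among the 10 was 0.259 and 0% of all genes passed 0.05. With lists of equal length 0 of the 10 genes reached an unadjusted p under 0.05 in this test, and with a window of 3 kb 1 did.

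Some regions were called throughout a group and never in another, that is, in 3 of 3 libraries against 0 of 3. Of the 58 regions of these genes with a peak in at least 3 libraries, 8 were of this kind. LPS against DMSO gained 4 and lost 2, LPS+Skatole against LPS gained 2, and LPS+Skatole against DMSO gained 6. Over the genome, 5.2% of 44522 regions were gained and 0.216% lost in LPS against DMSO, 2.68% were gained in LPS+Skatole against LPS and 9.75% in LPS+Skatole against DMSO. These are calls of presence, and a summit just under the threshold counts as absent.

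Distances are given from the summit to the nearest annotated start of the gene. Hif1a gained a region at −8.64 kb (chr12:73898462-73900074), upstream of the gene. It had no peak in DMSO, summit counts of 29, 29 and 30 in LPS, and 25, 36 and 36 in LPS+Skatole. A second region at −2.59 kb (chr12:73904106-73906214), which lies upstream of the start but inside the annotated gene, had no peak with DMSO, 19, 15 and 32 with LPS and 33, 22 and 21 with LPS+Skatole. At −8.64 kb the LPS and LPS+Skatole summits were 10.7 to 15.9 times the genome background, above the 7.34 times that the shallowest DMSO library needed for a call, whereas 1 LPS summit at −2.59 kb was 6.74 times and so below it.

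Pfkfb3 gained 2 regions in its gene body between its 2 annotated starts. At −10.30 kb from the start that is called in all libraries (chr2:11511966-11513472) there was no peak with DMSO, 21, 14 and 15 with LPS and 39, 42 and 72 with LPS+Skatole. On the scale of the genome background this was 9.15, 6.29 and 6.40 times in LPS and 16.7, 18.6 and 30.1 times in LPS+Skatole. LPS+Skatole stood above LPS in every library. The LPS values of 6.29 and 6.40 lie below the 6.43 times that any DMSO library needed for a call, so a DMSO library could not have called a peak of that height. In the region 11.08 kb downstream of the other start (chr2:11542246-11543188) only LPS+Skatole libraries had a peak, with summit counts of 19, 24 and 27.

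Pdk1 was the gene whose start site changed in its calls. The region at its start (chr2:71872530-71874702) had summit counts of 52, 27 and 56 in DMSO, no peak in LPS, 73 and 38 in LPS+Skatole replicates 1 and 2 and no peak in replicate 3. This start was thus called in every DMSO library, in no LPS library and in part of the LPS+Skatole libraries. It was a weak peak, with a local background of 25.2, 4.41 and 15.03 in DMSO and 25.6 and 6.79 in LPS+Skatole where the genome background was 1.09 to 2.39, and it ranked between percentile 8.70 and 56.98 of its lists. A further region at −6.01 kb (chr2:71866962-71867849) was called only in LPS+Skatole, with 27, 34 and 42.

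Aldoa gained a region at +2.55 kb in its gene body (chr7:126796228-126797143), with no peak with DMSO, 30, 59 and 50 with LPS and 71, 63 and 43 with LPS+Skatole. The region at +7.26 kb (chr7:126791161-126791988) went the other way, with 29, 35 and 29 in DMSO, no peak in LPS and 84 in 1 LPS+Skatole library, and lies in the neighbouring gene Ppp4c, 0.45 kb from its start. The window of Aldoa therefore also takes in peaks at Ppp4c.

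**Figure D3:**
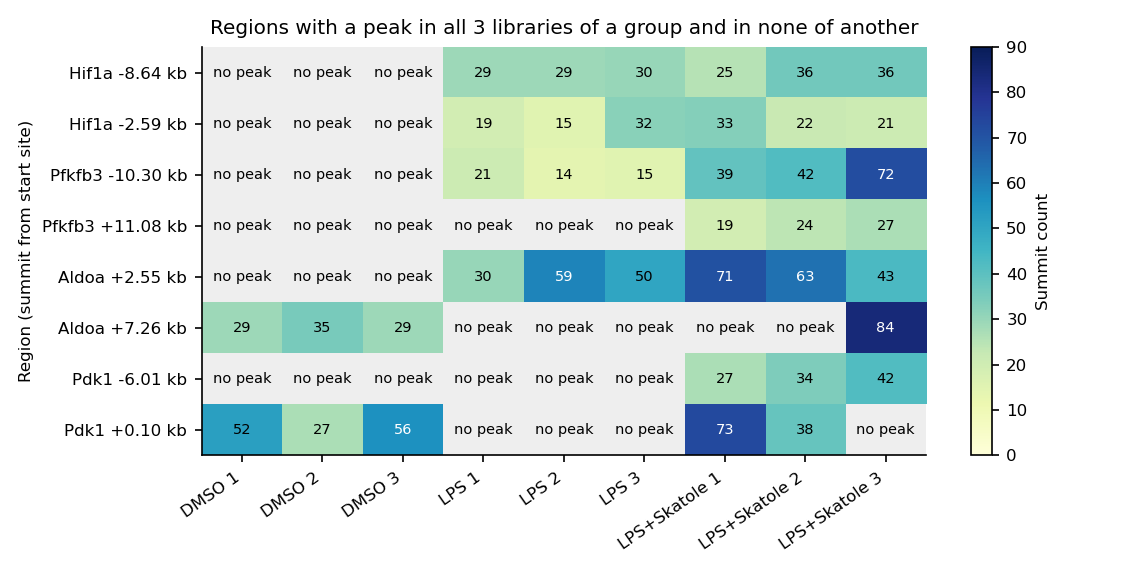
Summit count (colour and printed value) in each of the 9 libraries (x axis) for the 8 regions called in every library of a group and in 0 of another (y axis, with the distance of the summit from the gene's nearest start, grey for no peak). Of these, 6 are without a peak in DMSO, 2 of which have one in LPS+Skatole only, and the Pdk1 start and the Aldoa region at +7.26 kb have peaks in DMSO and none in LPS.

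For the 22 regions with a peak in all 9 libraries the heights could be compared directly. Height was the summit count divided by the genome background of the library, and for the test its log2 was centred on the median over all 13824 regions called in all 9 libraries. That median moved by −0.20 (log2) from DMSO to LPS, by 0.28 from LPS to LPS+Skatole and by 0.08 from DMSO to LPS+Skatole, and the log2 differences below are relative to it. In limma 0 of the 22 regions passed an adjusted p of 0.05 in LPS against DMSO, where 1.28% of all regions were higher and 0.514% lower, and 0 passed in LPS+Skatole against LPS, where 0.0434% were higher and 0.123% lower. In LPS+Skatole against DMSO 2 were higher and 1 was lower, beside 3.96% and 4.43% of all regions.

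At the start sites no region passed the test in any comparison. Heights before centring were without overlap in LPS+Skatole against LPS in 3 of the 9 start regions, 2 higher and 1 lower, beside 15.9% and 2.39% of all 5389 start regions. The Hif1a start region (chr12:73906398-73910099) had heights of 80.8, 38.6 and 67.7 with DMSO, 42.7, 44.0 and 55.5 with LPS and 70.9, 57.9 and 63.5 with LPS+Skatole. LPS+Skatole stood above LPS without overlap by a ratio of 1.35 of the mean heights, and both overlapped with DMSO. Relative to the median region the difference was 0.16 ± 0.22 (log2, SE), with an adjusted p of 0.842 in limma. By the authors' fold over the local background LPS (8.31, 4.56 and 5.59) and LPS+Skatole (13.7, 5.80 and 12.0) overlapped at this start.

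The Slc2a1 start region (chr4:119106799-119110201) stood the other way round. It had heights of 66.1, 98.7 and 65.5 with DMSO, 66.2, 75.9 and 74.2 with LPS and 64.1, 53.1 and 63.1 with LPS+Skatole. On this scale LPS+Skatole lay below both groups without overlap, narrowly so against DMSO (64.1 against 65.5). Relative to the median region the difference was −0.55 ± 0.19 (log2, SE) in LPS+Skatole against LPS, with an adjusted p of 0.272 in limma. On the background scale alone, without centring, the difference from LPS was −0.27. Against DMSO the centred difference was −0.41, with an adjusted p of 0.184 in limma. By the authors' fold DMSO (31.9, 51.9 and 34.5) and LPS+Skatole (40.4, 33.8 and 39.1) overlapped.

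The kinase genes Hk1 and Pfkfb3 had start-site heights of 103.7, 58.6 and 72.9 and of 46.8, 25.7 and 18.4 in DMSO, of 54.4 to 66.2 and of 12.6 to 19.2 in LPS, and of 73.1 to 99.1 and of 16.4 to 33.4 in LPS+Skatole. LPS+Skatole and LPS did not overlap for Hk1 and did for Pfkfb3, and LPS+Skatole overlapped with DMSO in both. Hk2 (39.3 to 73.4 over all libraries) and Pfkl (37.9 to 92.2) overlapped between all groups.

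On the scale of the genome background Eno1 had the highest start-site region. Eno1 ranged from 123.0 to 152.7 and Aldoa from 70.8 to 105.7 over the 9 libraries, with overlap of all groups. The order depends on that scale, since the Eno1 start had a local background of 36.2 to 81.0 and by the authors' fold stood only 3.47 to 4.65 times above it, where the Aldoa start stood 33.8 to 59.8 times above its own. The Ldha start region had 73.4, 60.8 and 52.3 with DMSO, 47.9, 34.6 and 46.1 with LPS and 59.8, 63.3 and 38.0 with LPS+Skatole, lower in LPS than in DMSO without overlap, as in 31% of all start regions, with an adjusted p of 0.536 in limma after centring (−0.34, log2).

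**Figure D4:**
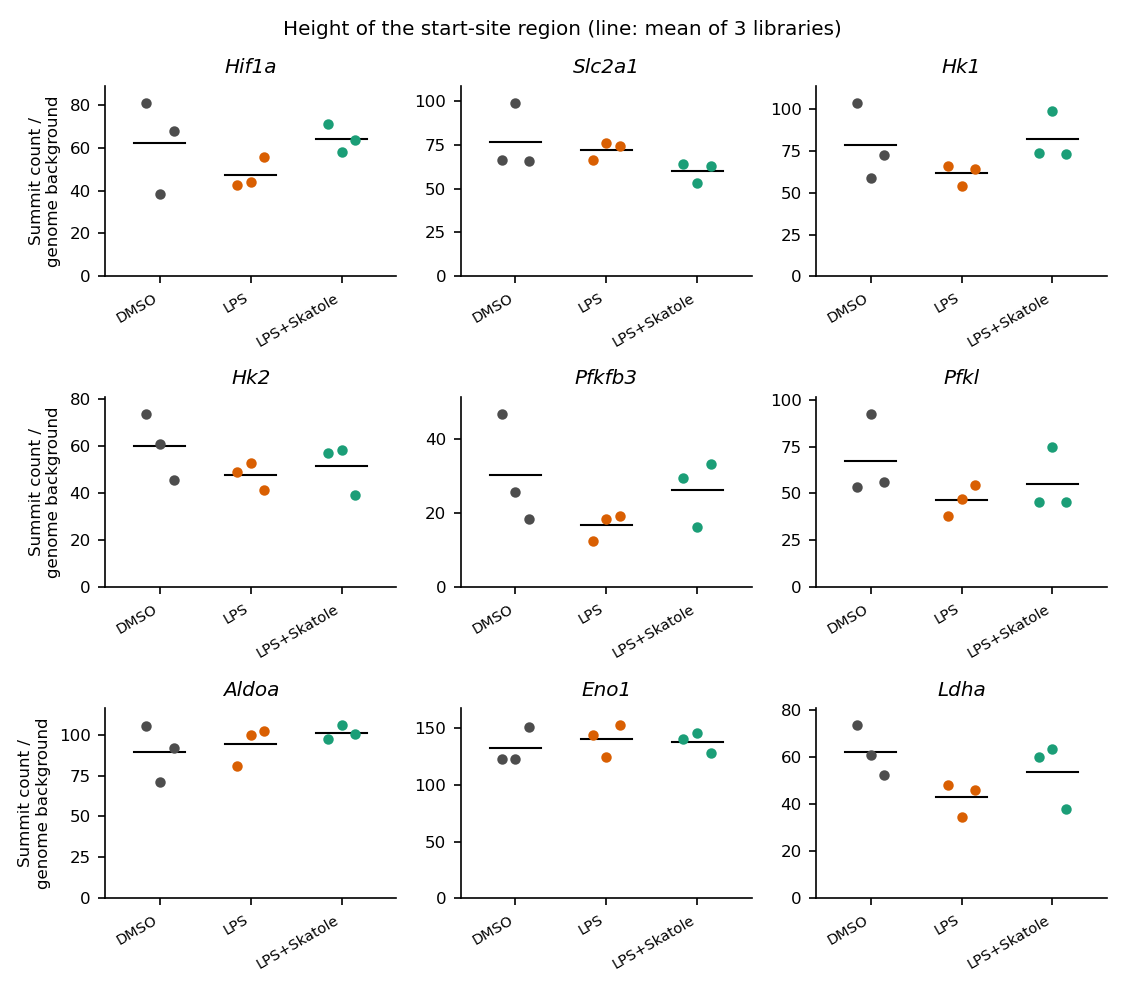
Height of the start-site region (summit count divided by genome background, y axis from 0) of the 9 genes whose start lies in a region called in all 9 libraries, by library of DMSO, LPS and LPS+Skatole (points, line at the mean of 3). Hif1a and Hk1 stand higher and Slc2a1 lower in LPS+Skatole than in LPS without overlap, though Hif1a overlaps by the authors' fold over the local background. Eno1 is the highest of the 9 on this scale at 123.0 to 152.7, though not by that fold.

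Away from the genes' own start sites, 13 regions were called in all 9 libraries. Before centring 4 of them stood higher in LPS+Skatole than in LPS without overlap and 0 lower. Of the 8435 regions called in all libraries outside the 5389 start regions, 27.3% were higher and 1.34% lower. The 2 sets differ in kind, since the Pfkl region at 31.16 kb among the 13 holds the start of Cfap410. The Slc2a1 region at −2.80 kb (chr4:119103944-119106538) had heights of 22.9, 25.7 and 39.7 with DMSO, 23.5, 49.9 and 38.4 with LPS and 70.5, 53.1 and 50.1 with LPS+Skatole. It rose in LPS+Skatole against DMSO by 0.92 ± 0.27 (log2, SE, adjusted p = 0.0289 in limma), and LPS+Skatole also stood above LPS without overlap, with a difference of 0.41 and an adjusted p of 0.609 in limma. So the upstream region of Slc2a1 had its highest mean height with skatole, and its start region had its lowest. At the start the groups LPS+Skatole and DMSO overlapped by the authors' fold, as given above. The call was lost without DMSO replicate 1 or 2 or LPS+Skatole replicate 1 or 2 (adjusted p from 0.0548 to 0.137 in limma) by the authors' fold (adjusted p = 0.109 in limma), over regions in at least 8 libraries (0.0924) and without a variance trend (0.0844).

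The Eno1 region at 2.88 kb (chr4:150238452-150240876), in the gene body, had heights of 46.8, 37.2 and 30.9 with DMSO, 51.0, 60.2 and 49.1 with LPS and 64.5, 55.3 and 87.3 with LPS+Skatole. It rose in LPS+Skatole against DMSO by 0.76 ± 0.22 (log2, SE, adjusted p = 0.0279 in limma). The summit of this region was at another place in DMSO, between 1508 and 2049 bp from the start, than in LPS (2896 to 3326 bp) and LPS+Skatole (2847 to 2884 bp). The local background was 5.53 to 13.7 in DMSO and 40.4 to 92.9 in the other libraries, and by the authors' fold, which divides by it, the direction was reversed (−1.46, adjusted p = 0.111 in limma). The call was also lost without DMSO replicate 2 or 3 or LPS+Skatole replicate 1 or 3 (adjusted p from 0.0578 to 0.162 in limma), over regions in at least 8 libraries (0.0784) and without a variance trend (0.0835).

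The region at 6.54 kb from the start of Aldoa (chr7:126792604-126794755), 0.10 kb from the start of Ppp4c, was lower in LPS+Skatole than in DMSO (−1.63 ± 0.32, log2, SE, adjusted p = 0.0015 in limma). Its heights were 24.8, 52.9 and 61.1 with DMSO, 13.1, 20.2 and 19.6 with LPS and 12.8, 15.9 and 15.9 with LPS+Skatole. The summits of DMSO replicates 2 and 3 lay at 6513 and 6536 bp, with a local background of 43.3 and 42.8, and those of the other 7 libraries at 5196 to 5779 bp with a local background of 3.48 to 9.66. By the authors' fold the difference was −0.20 and was not called (adjusted p = 0.846 in limma). LPS against DMSO did not pass (−1.12, adjusted p = 0.0632 in limma) and turned by the fold (0.29).

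Distal regions of Hk1 and Ldha were among the 4 of 13 that stood higher in LPS+Skatole than in LPS without overlap. That count lies near the 27.3% of the regions outside the start regions. The Hk1 region at 16.36 kb, in the gene body (chr10:62322699-62325011), had heights of 35.8, 32.2 and 15.5 with DMSO, 24.0, 24.3 and 24.3 with LPS and 55.6, 44.7 and 48.9 with LPS+Skatole, a ratio of 2.06 between the last 2 means. The Ldha region at −6.60 kb (chr7:46837850-46839487) had 32.1, 41.5 and 50.8 with DMSO, 36.6, 39.5 and 29.4 with LPS and 66.7, 56.6 and 78.1 with LPS+Skatole, a ratio of 1.91. LPS+Skatole stood above both other groups without overlap in each on this scale. By the authors' fold this held for the Hk1 region but not for the Ldha region. There DMSO had 3.05, 3.93 and 7.49, LPS 3.02, 3.19 and 4.63 and LPS+Skatole 6.57, 4.40 and 7.48. The differences from LPS by the fold were 0.75 for Hk1 and 0.49 for Ldha (log2, adjusted p = 0.541 and 0.760 in limma). Relative to the median region the differences from LPS were 0.75 ± 0.28 and 0.65 ± 0.23 (log2, SE), with adjusted p of 0.296 and 0.273 in limma, so neither passed. On the background scale without centring the Ldha region passed (0.93, adjusted p = 0.0378 in limma) and the Hk1 region did not (1.03, adjusted p = 0.0533 in limma).

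The remaining distal regions did not pass in any comparison. The Hk1 region at 19.77 kb (chr10:62320329-62321200) had heights of 19.9 to 25.7 with DMSO, 32.4 to 37.0 with LPS and 27.4 to 45.1 with LPS+Skatole, with an adjusted p of 0.0773 in limma for LPS against DMSO (0.89, log2). Its local background was 2.63 to 13.8 in DMSO and 21.1 to 22.9 in LPS, and by the authors' fold the direction turned (−0.46). The Aldoa region at −2.81 kb (chr7:126802269-126804331) was above LPS in LPS+Skatole without overlap (30.1 to 37.2 against 17.4 to 27.9), with an adjusted p of 0.761 in limma. The others were those of Slc2a1 at −6.39 kb, Hk1 at −9.04 and 3.50 kb, Hk2 at 10.26 kb, Aldoa at −8.84 kb and Pfkl at 31.16 kb, the last at the start of the neighbouring gene Cfap410.

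**Figure D5:**
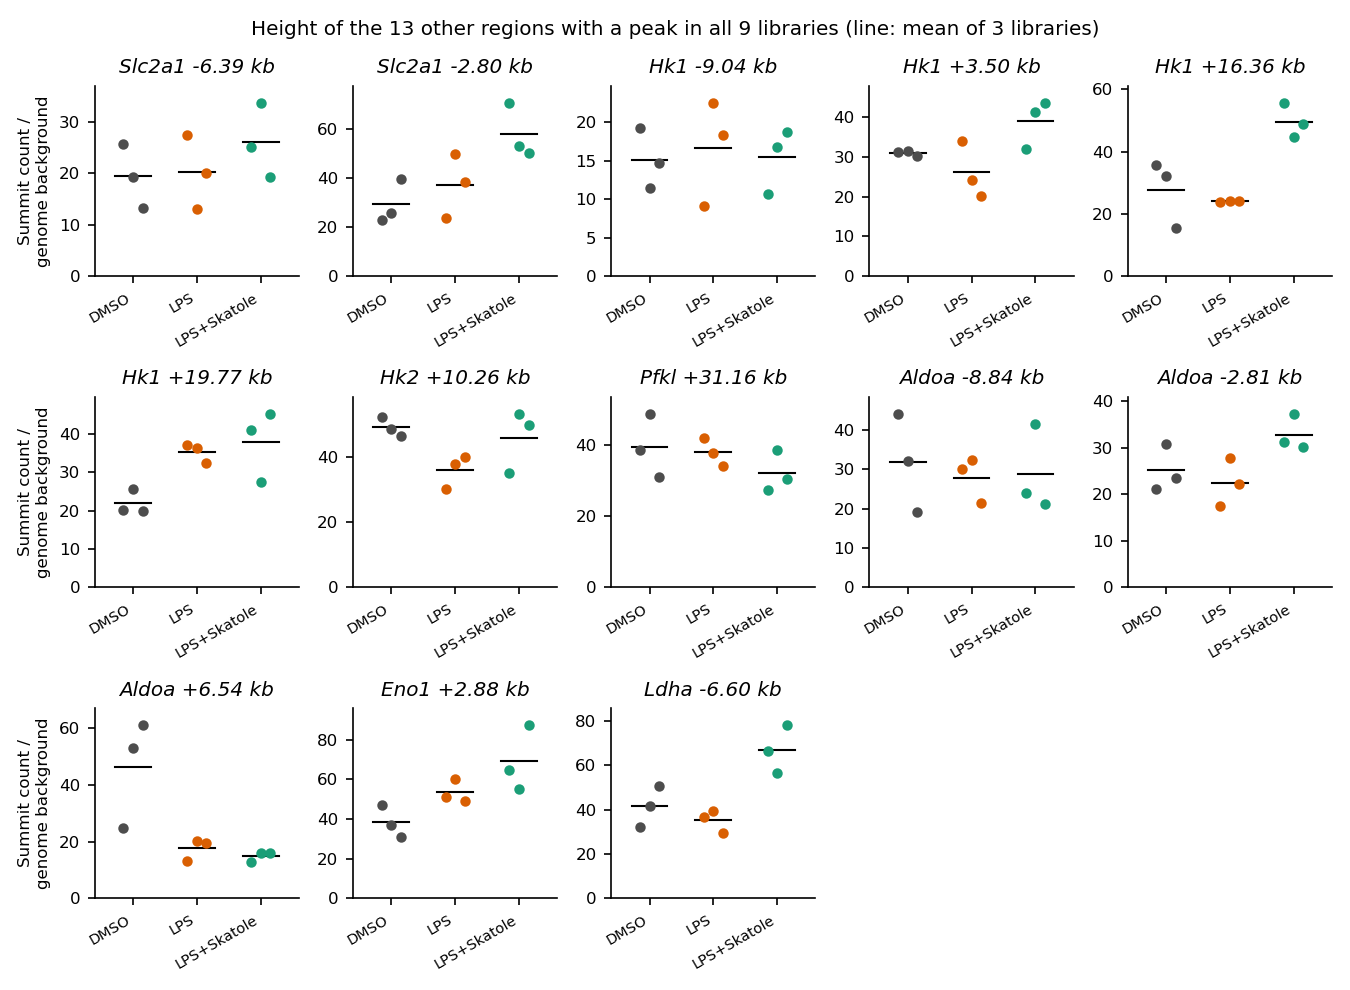
Height of the 13 other regions with a peak in all 9 libraries (summit count divided by genome background, y axis from 0, panels titled with the gene and the distance of the summit from its start), by library of DMSO, LPS and LPS+Skatole (points, line at the mean of 3). Slc2a1 at −2.80 kb, Hk1 at 16.36 kb, Aldoa at −2.81 kb and Ldha at −6.60 kb stand higher in LPS+Skatole than in LPS without overlap. By the authors' fold Ldha at −6.60 kb overlaps. Aldoa at 6.54 kb, beside Ppp4c, is called lower in LPS+Skatole than in DMSO, but not by the authors' fold.

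The strongest peak of each gene was then placed within its own list, as the share of peaks with a lower −log10 p. Aldoa stood between percentile 98.2 and 99.8 in all libraries, Slc2a1 between 97.6 and 99.6, Hk1 between 96.2 and 99.7, and Ldha from 96.2 upwards. Hif1a lay between 81.8 and 97.1 and Pfkfb3 between 81.5 and 94.4. Pdk1 was the lowest of the 10, at 64.3, 50.6 and 57.0 with DMSO, 4.39, 60.6 and 49.3 with LPS and 63.1, 67.1 and 74.5 with LPS+Skatole.

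The percentile was higher in LPS+Skatole than in LPS without overlap for Hk1, Ldha and Pdk1 (exact permutation test, p = 0.1 each), 3 of the 10 genes beside 14.7% of the 11870 genes with a peak in all libraries. Ldha had 98.2, 96.3 and 97.7 in LPS and 98.8 to 98.99 in LPS+Skatole. In LPS replicate 2 and LPS+Skatole replicate 3 its strongest peak lay at −11.81 kb and not at the start. At the start region alone the percentiles overlapped (98.2, 95.27 and 97.72 in LPS, 98.83, 98.99 and 95.59 in LPS+Skatole). Since the lists differ in length, the position counted from the top gave another set of genes, with Ldha higher and Slc2a1 and Eno1 lower. No share of all genes is given for that position. In LPS against DMSO the percentile was higher without overlap for Aldoa and Eno1, 2 of the 10 genes beside 20% of all. Eno1 had 83.8, 91.6 and 92.4 in DMSO and 96.4, 93.6 and 96.8 in LPS, and its groups overlapped at equal list length (83.8, 90.3 and 91.7 against 94.7, 90.2 and 94.6) and in the position counted from the top. By that position Pdk1 was lower in LPS than in DMSO without overlap (place 13421 to 21462 in DMSO, 22081 to 51371 in LPS).

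The other genes of the pathway were read in the same way, with no test of the lists. Peak numbers were higher in LPS+Skatole than in LPS for 9.1% of all genes, as above, and for 1.74% of 17199 genes at equal list length. Over all protein-coding genes 299 were higher and 387 lower at equal list length. Start regions were called lower in LPS+Skatole than in DMSO in 7.44% of 5389. Of 33 further glycolysis genes, 27 had a peak in every library and 20 of the 29 with a known start had it in a region of all 9 libraries. LPS+Skatole lay above LPS in peak number for 2 of them and below for 0. These were Hk3, a further hexokinase, with 2 peaks in each LPS library and 6, 4 and 6 in LPS+Skatole, and Slc16a1, the lactate transporter MCT1, with 2, 3 and 2 against 4, 7 and 6. At equal list length 2 genes were higher and 1 lower, and these need not be the same genes. At the start of Tpi1 (triosephosphate isomerase) the mean height was 73.4 in DMSO and 49.4 in LPS+Skatole (−0.67, log2, adjusted p = 0.0421 in limma), the only one of 20 start regions called in that comparison.

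Of 28 regulators and targets of HIF, 7 were higher in peak number in LPS+Skatole than in LPS and none was lower, and at equal list length the number was 0 in both directions. They included Arnt2, a partner of HIF subunits, with 1, 0 and 2 peaks in LPS and 6, 6 and 4 in LPS+Skatole. Ndrg1, a hypoxia-induced gene, had 2, 3 and 3 against 7, 6 and 7. Crebbp, a coactivator, had 8, 8 and 6 against 12, 10 and 11. Egln1, the prolyl hydroxylase that marks HIF subunits for decay, had 2, 4 and 3 against 6, 7 and 5. At the start of Hif1an, the asparaginyl hydroxylase that restrains HIF, the mean height was 58.7 in DMSO and 36.5 in LPS+Skatole (−0.81, log2, adjusted p = 0.0364 in limma). It was 1 of 15 start regions, beside 7.44% of all 5389 called lower.

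The counterpart list held 77 genes of oxidative phosphorylation. Of these, 70 had a peak in every library, and 49 of the 65 with a known start had it in a region of all 9 libraries (75.4%, beside 90% of the 10 genes). LPS+Skatole lay above LPS in peak number for 6 of the 77 (7.79%), below for 1, and for 3 of the 10. At equal list length it lay above for 2 of the 77 and 1 of the 10, and below for 0 of both, so that Sdhd, named below, no longer separated. The lists differ in median window (27.3 and 49.6 kb) and in median peak number in LPS (2.67 and 6), and the share without overlap over all genes also differs with peak number, as given above. At their starts the median height over genes was 41.1 with DMSO, 29.7 with LPS and 34.8 with LPS+Skatole, where the 9 start regions here had 67.1, 47.6 and 60.1 and all 5389 start regions of this kind 44.2, 36.0 and 40.6. Both lists thus had their lowest median in LPS, as did all start regions. The median difference of the start regions from LPS to LPS+Skatole, relative to the median region, was −0.06 (log2) in both lists and −0.13 over all. In LPS+Skatole against DMSO 12 of the 105 regions of oxidative phosphorylation genes were lower and 1 was higher, beside 1 and 2 of the 22 here, and 4.43% and 3.96% of all regions. The mean peak number went from 1.33 in LPS to 3.67 in LPS+Skatole for Ndufa4, from 2.67 to 4.67 for Atp5j and from 0 to 1.67 for Ndufb4, and from 5.67 to 3.67 for Sdhd, without overlap in each. The difference between the lists was not tested.

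As a check of the libraries, 18 of 20 known NF-κB targets and 9 of 10 macrophage genes had a peak in every library, as did 4 of 20 genes of other tissues. For the NF-κB targets 8 of 20 were higher in peak number in LPS than in DMSO, beside 12.2% of all genes with a peak. Among genes with a mean of at least 3 peaks the share was 20.9%. No count at equal list length is given for these targets in that comparison. The start region of the chemokine gene Cxcl2 had a mean height of 20.6 in DMSO, 61.1 in LPS (1.80, log2, adjusted p = 1.78e-06 in limma) and 101 in LPS+Skatole. Of the 12 start regions of these targets called in all libraries, only 1 was called higher in LPS than in DMSO, beside 12 of all 5389. The median difference over the 12 regions of the targets was −0.006 (log2, relative to the median region). In LPS+Skatole against LPS, Cxcl10 had 4 peaks in each library against 2, 2 and 3, and Nfkb2 had 3, 2 and 4 against 7, 5 and 5. Among the macrophage genes Itgam had 10, 10 and 9 against 7, 4 and 4, Mrc1 3, 4 and 4 against 1, 1 and 0, and Spi1 9, 10 and 10 against 13, 14 and 12. At equal list length 0 of the macrophage genes were without overlap in this comparison, and of the NF-κB targets 0 were higher and 1 was lower. Over all protein-coding genes 299 were higher and 387 lower there.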

How the data were processed

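Peaks were called by the authors in each of 9 libraries and deposited as narrowPeak lists. Each row of the deposited lists holds a score (10 times the −log10 p, whole part, used only to check the format), a fold (a ratio of summit pileup to local background), and the −log10 of both p and q. The lists end just above a −log10 p of 5. The submitters' processing notes name fastp 0.20.1, HISAT2 2.1.0, StringTie 2.0 and mm10. The peak caller, duplicate handling and control were not given in the sources used here.

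Summit counts and local backgrounds were recovered from the authors' fold, (count + 1)/(background + 1), and Poisson p. More than 99.99% of counts fell within 0.05 of a whole number, and the recovery was tested on simulated data. The background shared by most peaks of a list was taken as its genome background, a measure of relative depth (1.09 to 1.40 in DMSO, 2.23 to 2.39 elsewhere). Total reads were not used, so no counting interval is given. On chromosomes 1 to 19, X and Y, peaks that shared at least 1 bp were joined into a region. Coordinates are 1-based on mm10 (GRCm38), and gene bodies, start sites and promoters come from RefSeq (GRCm38.p6).

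Peak numbers and percentiles were compared by exact two-sided permutation tests (smallest p 0.1) and jointly over 280 divisions (smallest p 0.00357). Region heights were fitted in limma 3.58.1 (R 4.3.3) with a trend, over regions called in all 9 libraries, with Benjamini-Hochberg adjustment over 13824 regions. Python 3.11.15 and scipy 1.17.1 were used. The named regions were those called in all 9 libraries, those called throughout a group and never in another, and the region of highest mean percentile of each gene. From every other list at most 4 genes were named by the largest difference in peak number between LPS+Skatole and LPS without overlap. Genes named for a start-site height (Tpi1, Hif1an, Cxcl2) were chosen after their values were seen. The members and lists were chosen with earlier results of these data known.

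Alternatives were lists of equal length, a window of 3 kb, summits inside the window, a −log10 q of at least 5, summits of at least 8 times the background, no centring, the authors' fold, regions in at least 8 libraries (a missing height set to the smallest that the library could call), regions built from summits within 250 bp, no trend, a replicate block, and leaving out each library. Same-numbered libraries did not deviate together (correlations from −0.0096 to 0.0141 over 9 pairs), so the numbers were not taken as pairs. The Blank sample was not analysed here.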

Additional observations from a re-analysis of the deposited data

How the results depend on the processing

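With lists of equal length the number of the 10 genes whose groups did not overlap in peak number was 0 for LPS against DMSO, 1 for LPS+Skatole against LPS and 1 for LPS+Skatole against DMSO, and with a window of 3 kb it was 1 and 2 for LPS+Skatole against LPS and against DMSO. For LPS against DMSO it was 1 with a −log10 q of at least 5 and 0 with the limit of 8 times the background, chosen after seeing the data. Leaving out each library gave 2 to 4, 3 to 4 and 4 to 5 genes in the 3 comparisons, with 4 for LPS against DMSO without DMSO replicate 3 or LPS replicate 1. By the authors' fold 0 genes differed in the rank of the strongest peak, and leaving out each library gave 3 to 5 (5 without LPS+Skatole replicate 2). Of the 22 regions, 1 was called in LPS against DMSO and 1 in LPS+Skatole against LPS without centring. In LPS+Skatole against DMSO 0 were called by the authors' fold and 1 without a trend. Leaving out each library gave 0 to 1 (1 without DMSO replicate 1), 0 and 1 to 3 regions (1 without LPS+Skatole replicate 1). With the replicate block, 3, 4 and 4 genes had all same-numbered differences in peak number of 1 sign, 4 in rank, and 0, 0 and 3 regions were called. The replicate block changed no call among the 22 regions. By the authors' fold 4 differences of named regions turned: Eno1 at 2.88 kb to −1.46 (LPS+Skatole against DMSO) and −0.91 (LPS against DMSO), Aldoa at 6.54 kb to 0.29 and Hk1 at 19.77 kb to −0.46 (both LPS against DMSO). Of the 224 recomputed values 186 kept their direction and side of the threshold or, for a count, stayed within 1.5 times, which does not mean the same genes: the 3 genes of the rank were Hk1, Ldha and Pdk1, and by the position from the top Ldha, Slc2a1 and Eno1. In the joint test of peak number 3 genes had an unadjusted p under 0.05, 0 at equal list length and 1 with a window of 3 kb. Apart from the fold, whose divisor is the local background, the cause of a move was not tested. Over all regions, calls in LPS against DMSO, LPS+Skatole against LPS and LPS+Skatole against DMSO numbered 248, 23 and 1161 (177, 6 and 548 of them higher), 607, 165 and 1026 without centring (98, 159 and 680 higher), 38, 7 and 198 by the fold, 130, 4 and 887 over regions in at least 8 libraries, 78, 0 and 620 without a trend, and 100 to 233, 9 to 37 and 729 to 1084 on leaving out each library. In DMSO the lower depth limits weak sites, so absence of a peak there was not shown to be absence of binding.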
